A study of Homo sapiens with 2 samples.

Results

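The genes described here carry out antigen presentation by MHC class I: the heavy chains HLA-B, HLA-C, HLA-E and HLA-F, the light chain B2M, the peptide transporter subunits TAP1 and TAP2, the loading factor TAPBP and the transcriptional activator NLRC5. They were chosen by name as a functional group, with earlier results of these data known. All 9 were found among the 26255 gene symbols of the deposited tables. RNA-seq covered OVSAHO, an established human line of serous ovarian carcinoma, with 1 library from cells in which SMARCA2 was raised and SMARCA4 knocked down (siA4; the genotype label calls SMARCA2 stable) and 1 from control cells with a control siRNA (siNC; genotype WT). Both cultures had been kept in 25 µM carboplatin, a DNA-crosslinking platinum drug, for 2 days, so neither library shows untreated cells. SMARCA2 and SMARCA4 are the alternative ATPases of the SWI/SNF chromatin remodeller. Each label combines both perturbations, and their separate parts in any difference cannot be told apart. The titles carry a number after each line's name (A2v-6, Cv-10) whose meaning is not given. Each group is 1 library, so no value has a between-culture error, no p-value was computed, and every difference is between these 2 libraries.

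A class I molecule is a heavy chain held by beta-2 microglobulin, and it reaches the cell surface only after it has bound a short peptide. Proteasomes cut the peptides, the TAP1-TAP2 heterodimer pumps them into the endoplasmic reticulum, and tapasin bridges the pump to empty class I molecules with the help of calreticulin and ERp57. Promoters of the pathway can carry elements that respond to interferon through IRF factors and to NF-kappaB. Some carry an X2 and a Y box, on which NLRC5 acts together with the RFX, CREB and NF-Y factors. Loss of this machinery is a known way by which tumour cells avoid cytotoxic T cells.

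The sequences before the start of 6 members are shown because each carries some of these elements and because the genes behind them differed in direction between the libraries. Each is the 250 bases before the annotated start, 5′ to 3′ on the gene's strand, from RefSeq on GRCh38.p14. They are reference sequence, not that of OVSAHO, whose HLA alleles were not read, and the expression values were made on another build, hg19. Capitals mark matches, on either strand, to the core of an IRF element (AANNGAAA), to an NF-kappaB site, and to the X2 box TGACG followed after 15 to 25 bases by ATTGG, the Y box CCAAT on the opposite strand.

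HLA-B, chr6:31357180-31357429, - strand: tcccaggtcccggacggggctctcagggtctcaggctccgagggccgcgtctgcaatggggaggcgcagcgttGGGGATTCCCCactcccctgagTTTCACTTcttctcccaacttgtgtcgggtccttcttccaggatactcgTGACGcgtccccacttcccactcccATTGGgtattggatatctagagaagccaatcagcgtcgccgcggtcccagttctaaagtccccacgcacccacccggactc
HLA-C, chr6:31272093-31272342, - strand: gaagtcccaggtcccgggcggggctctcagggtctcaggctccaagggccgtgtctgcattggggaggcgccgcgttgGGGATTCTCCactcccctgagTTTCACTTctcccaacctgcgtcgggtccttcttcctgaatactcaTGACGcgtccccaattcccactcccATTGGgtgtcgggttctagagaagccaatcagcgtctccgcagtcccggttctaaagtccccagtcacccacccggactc
HLA-F, chr6:29723184-29723433, + strand: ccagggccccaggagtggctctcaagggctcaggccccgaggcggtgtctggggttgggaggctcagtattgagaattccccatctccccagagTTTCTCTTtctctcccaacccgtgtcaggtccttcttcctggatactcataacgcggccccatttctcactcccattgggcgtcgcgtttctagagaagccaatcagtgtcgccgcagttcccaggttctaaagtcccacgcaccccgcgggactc
B2M, chr15:44711267-44711516, + strand: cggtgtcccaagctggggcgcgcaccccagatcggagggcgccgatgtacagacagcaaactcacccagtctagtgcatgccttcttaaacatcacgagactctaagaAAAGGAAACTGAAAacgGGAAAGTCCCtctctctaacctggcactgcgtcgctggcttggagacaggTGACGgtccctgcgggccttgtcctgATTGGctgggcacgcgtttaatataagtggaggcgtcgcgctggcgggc
TAP1, chr6:32853705-32853954, - strand: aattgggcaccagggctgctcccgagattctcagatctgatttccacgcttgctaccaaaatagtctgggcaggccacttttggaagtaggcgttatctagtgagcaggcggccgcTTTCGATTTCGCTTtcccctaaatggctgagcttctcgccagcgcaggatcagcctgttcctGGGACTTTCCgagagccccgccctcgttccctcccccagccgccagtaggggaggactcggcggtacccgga
TAPBP, chr6:33314079-33314328, - strand: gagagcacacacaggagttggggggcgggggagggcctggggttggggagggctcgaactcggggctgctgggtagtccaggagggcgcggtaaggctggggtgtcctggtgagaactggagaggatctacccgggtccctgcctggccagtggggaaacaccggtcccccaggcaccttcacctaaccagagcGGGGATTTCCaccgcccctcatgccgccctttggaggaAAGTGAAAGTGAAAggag

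The table of starts held 7 of the 9 members, and HLA-E and NLRC5 were the others. The AANNGAAA core was present before the start of all 7, counting for TAP1 the upstream of its 2 annotated starts, and 20.3% of 35091 start-site windows of the same length held it. Its longer form, GAAA, any 2 bases and GAAA, was present before HLA-F, B2M, TAP1, TAP2 and TAPBP but not before HLA-B or HLA-C, against 3.02% of all windows. HLA-B, HLA-C, B2M, TAP1 and TAPBP had an NF-kappaB match, against 9.95%. The X2 and Y pair was found before HLA-B and HLA-C, with 20 bases between the boxes in each, and before B2M, with 21, against 0.408% of all windows searched on both strands. HLA-F had Y boxes and no TGACG match in this window, TAP2 had TGACG and no CCAAT, and TAPBP had neither. The downstream start of TAP1 had no match to any of these motifs. The motifs and the spacing were chosen after the sequences were seen, so the shares over all windows are a description and not a test. These are letter matches, and they say nothing about whether a factor was bound.

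**Figure D1:**
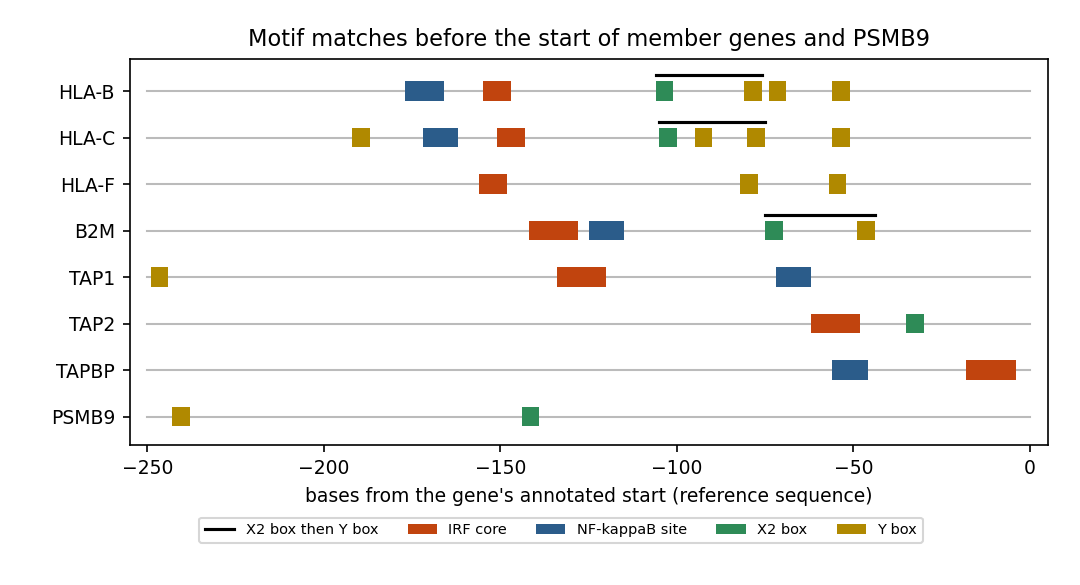
Motif matches in the 250 bases before the annotated start of 7 members and of PSMB9, with bases from the start on the x axis and 1 gene a line. Coloured boxes are single matches, overlapping IRF cores drawn as 1 box, and the black bar spans an X2 box and the Y box that follows it, which only HLA-B, HLA-C and B2M had among the genes drawn.

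The heavy chains bind peptide and are what T cells and NK cells recognise. HLA-C, a classical heavy chain and a ligand of killer-cell receptors, stood at 212 FPKM after the perturbation and at 293 FPKM in control cells. Further pairs of values are given in this order, perturbed before control. HLA-B, the classical heavy chain with the most alleles, was at 80.7 FPKM against 148 FPKM. HLA-E, which presents signal peptides of other class I chains to the NK receptor CD94-NKG2A, was at 60.9 FPKM against 120 FPKM. All 3 were lower in the perturbed library, by ratios of deposited FPKM of 0.725 for HLA-C (95% counting interval 0.688 to 0.763), 0.544 for HLA-B (0.503 to 0.589) and 0.509 for HLA-E (0.475 to 0.544). HLA-F, a non-classical chain found largely inside cells, was at 2.00 FPKM against 3.16 FPKM, a ratio of 0.632 whose interval of 0.273 to 1.32 includes 1. HLA-G, the chain best known from placenta, was listed at 0 in both libraries. In bulk RNA, fewer cells that express a gene and less RNA per cell cannot be told apart.

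The intervals are exact binomial (Clopper-Pearson) intervals on fragment numbers estimated from the FPKM, the library depth and the shortest annotated transcript. They cover counting error only, and they take each fragment as independent. PCR copies are not independent molecules, so the intervals may be too narrow even for counting error. HLA-E rested on about 1294 and 2602 fragments, and HLA-F on about 12.1 and 19.6.

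FPKM is scaled by transcript length, so levels can be set side by side across genes, but only roughly. Length scaling does not correct for sequence shared with other genes or for HLA alleles that differ from the reference. Within the summed FPKM of these 4 heavy chains, HLA-C made up 59.6% in the perturbed library and 51.9% in the control. HLA-B made up 22.7% and 26.3%, HLA-E 17.1% and 21.2%, and HLA-F 0.562% and 0.561%. The sum itself was 356 FPKM against 564 FPKM, so the chain with the smallest difference among the 3 abundant ones, HLA-C, took a larger share of a smaller total.

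B2M, the invariant light chain that every class I heavy chain needs, was the most abundant member in both libraries. Its level was 1108 FPKM with the perturbation, rank 155 among all symbols, and 1876 FPKM in the control, rank 72. The ratio was 0.591 (0.574 to 0.608), on about 7286 and 12614 fragments. B2M was 3.11 times the summed FPKM of the 4 heavy chains in the perturbed library and 3.33 times in the control. The summed heavy chains were also lower, as given above.

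**Figure D2:**
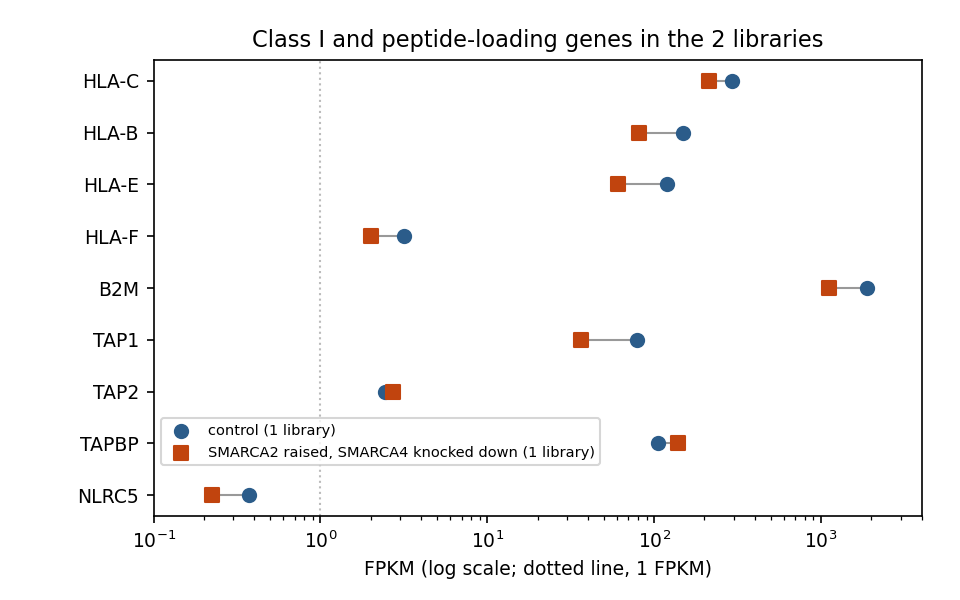
FPKM of the 9 genes on a log axis, with 1 point for each library (circles, control; squares, perturbed) and a grey line joining the pair. HLA-C, HLA-B, HLA-E, HLA-F, B2M, TAP1 and NLRC5 lie lower in the perturbed library, and TAP2 and TAPBP lie higher.

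The peptide transporter showed the most unequal pair. TAP1 had 36.4 FPKM with the perturbation against 79.2 FPKM, a ratio of 0.460 (0.424 to 0.498), which is 2.17-fold lower. Its partner TAP2 was at 2.72 FPKM against 2.42 FPKM, a ratio of 1.12 with an interval of 0.753 to 1.68. TAP1 exceeded TAP2 by 13.4-fold in the perturbed library and by 32.7-fold in the control, although the proteins work as a heterodimer. Both transporter values carry an uncertainty of counting. Of the 50-base words of TAP2's transcripts, 32.7% also occur in a transcript of another annotated gene, and of TAP1's, 15.2%, most of them in PSMB8-AS1, an overlapping transcript on the opposite strand. The library kit does not mark strand. PSMB8-AS1 was at 1.07 FPKM against 3.0 FPKM, small beside TAP1.

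Tapasin, encoded by TAPBP, tethers empty class I molecules to the transporter and edits their peptides. It was at 138 FPKM against 106 FPKM, the opposite direction to TAP1 and the heavy chains, with a ratio of 1.31 (1.16 to 1.47). TAPBP was therefore 3.79 times TAP1 in the perturbed library and 1.34 times in the control. In the order of levels, TAPBP stood below HLA-B and HLA-E in the control and above both in the perturbed library.

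NLRC5, the activator of class I genes, was the least abundant member, at 0.225 FPKM (counting interval 0.120 to 0.385) against 0.372 FPKM (0.234 to 0.564). The ratio of 0.604 had an interval of 0.280 to 1.25, on about 13 and 22 fragments, so no difference was detectable at this depth. The levels of TAP2 and HLA-F, neighbours in the order, had overlapping counting intervals within each library, 2.04 to 3.52 and 1.02 to 3.46 FPKM in the perturbed one and 1.79 to 3.17 and 1.97 to 4.99 FPKM in the control.

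HLA-F has a further limit. Of its 50-base words, 37.7% occur in other annotated transcripts, among them HLA-F-AS1, which lies on the opposite strand. HLA-F-AS1 was at 4.17 FPKM against 1.36 FPKM, higher where HLA-F was lower. The shares of words held by other genes were 21.0% for HLA-B, 6.79% for HLA-C and 5.76% for HLA-E, and 0% for B2M and NLRC5. How fragments that fit several genes were assigned is not given in the sources used here, so the values of the HLA genes are less certain than their counting intervals.

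**Figure D3:**
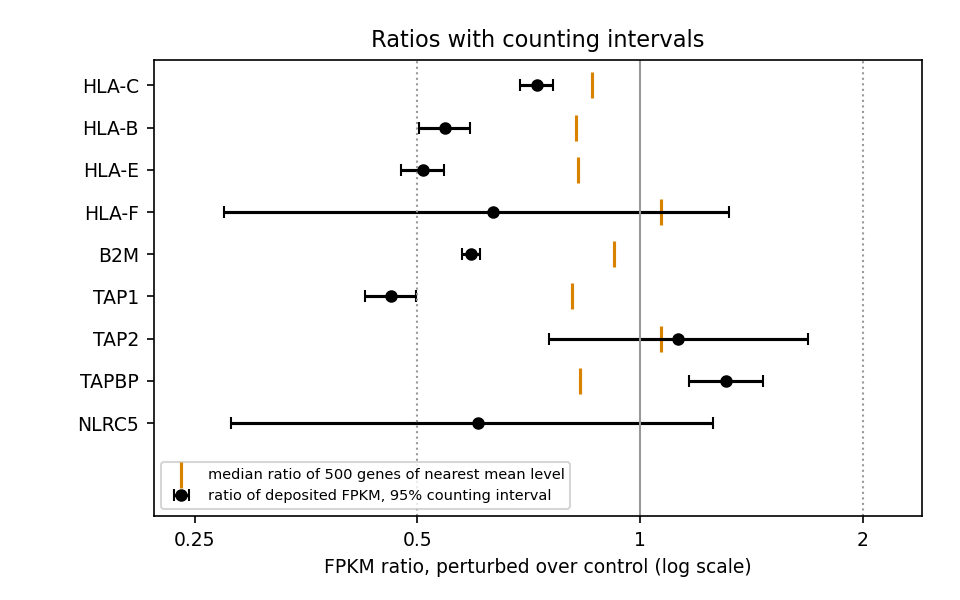
Ratio of deposited FPKM, perturbed over control, on a log axis, with the 95% counting interval (bars) and the median ratio of the 500 genes nearest in mean level (vertical ticks; none for NLRC5, which is under 1 FPKM). The intervals of HLA-C, HLA-B, HLA-E, B2M and TAP1 lie below both 1 and the tick, that of TAPBP lies above both, and those of HLA-F, TAP2 and NLRC5 cross 1.

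A gene was called higher or lower by size when either library reached 1 FPKM and its log2 ratio, taken with 1 FPKM added to both values, was at least 1 or at most -1. By this rule TAP1 was lower, at -1.10, and no member was higher, among the 8 members that passed the level filter. Of the 11785 genes that passed it, 7.61% were lower and 7.85% higher, so 1 member of 8 is close to the background. HLA-E at -0.96, HLA-B at -0.87 and B2M at -0.76 lay short of the rule. With each library's FPKM scaled to a common sum, TAP1 was at -0.96 and no longer passed, and the split of all genes became 5.70% lower and 10.5% higher. That scaling moved the median of all genes by 0.13 on the log2 scale, from -0.06 to 0.08. TAP1 was at -0.81 with the trend on level removed and at -0.88 with the trends on length, GC content and level removed, again short of the rule.

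Of the 8 members that passed the filter, 6 had a log2 ratio below 0, against 53.5% of all genes that passed, and NLRC5 was below 0 as well. The median over the 8 was -0.62, beside -0.06 over all. The background differed with level: among genes with a mean of 50 to 200 FPKM, where HLA-B, HLA-E, TAP1 and TAPBP lie, 69.5% were below 0 and the median was -0.28. Each member was therefore also set beside the 500 genes nearest to it in mean level. TAP1 lay 0.80 below their median, HLA-E 0.69, B2M 0.64, HLA-B 0.58, HLA-F 0.54 and HLA-C 0.25, all on the log2 scale. TAPBP lay 0.65 above its own and TAP2 0.05 above. Of the 500 genes near TAP1 in level, 6.2% had a lower ratio, near B2M 9.0%, near HLA-E 9.4% and near HLA-B 13.8%, while near HLA-C 31.4% did. The part of level in the members' ratios was not tested.

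All lists that follow stand beside the genes that passed the filter, 7.61% of them lower, 7.85% higher and 53.5% below 0. Of 7 listed genes of the loading complex and its chaperones, TAP1, TAP2 and TAPBP among them, 1 was lower by the rule, TAP1, and none higher, with a median log2 ratio of -0.03. Calreticulin, CALR, was at 458 FPKM against 422 FPKM, and ERp57, PDIA3, at 154 FPKM against 157 FPKM. CANX, the chaperone of the free heavy chain, was at 116 FPKM against 175 FPKM, a ratio of 0.663 (0.637 to 0.689) and so lower, short of the rule. Of 8 aminopeptidases and other peptide-trimming enzymes none passed the rule in either direction. LAP3 was at 43.1 FPKM against 72.4 FPKM and THOP1 at 54.8 FPKM against 65.2 FPKM. Among class I-like chains, 3 of 5 passed the level filter and none the size rule, with the neonatal Fc receptor FCGRT at 17.4 FPKM against 15.7 FPKM and the iron regulator HFE at 1.73 FPKM against 2.23 FPKM.

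The immunoproteasome, the interferon-inducible form that favours class I ligands, had none of 5 subunits and activators past the rule and a median of -0.06. The activator subunits PSME2 and PSME1 were at 1185 FPKM against 1233 FPKM and at 676 FPKM against 642 FPKM. Its catalytic subunits went apart: PSMB8 was at 136 FPKM against 264 FPKM, a ratio log2 of -0.95, and PSMB9 at 173 FPKM against 163 FPKM, 0.08. The third, PSMB10, was at 82.5 FPKM against 101 FPKM, -0.30. PSMB9 is the neighbour of TAP1 and is transcribed away from it. In the RefSeq annotation 487 bases lie between the upstream start of TAP1 and that of PSMB9. PSMB9 was 4.74 times TAP1 in the perturbed library and 2.05 times in the control. None of the 3 standard catalytic subunits passed the rule, with PSMB6 at 754 FPKM against 920 FPKM and PSMB5 at 519 FPKM against 864 FPKM.

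**Figure D4:**
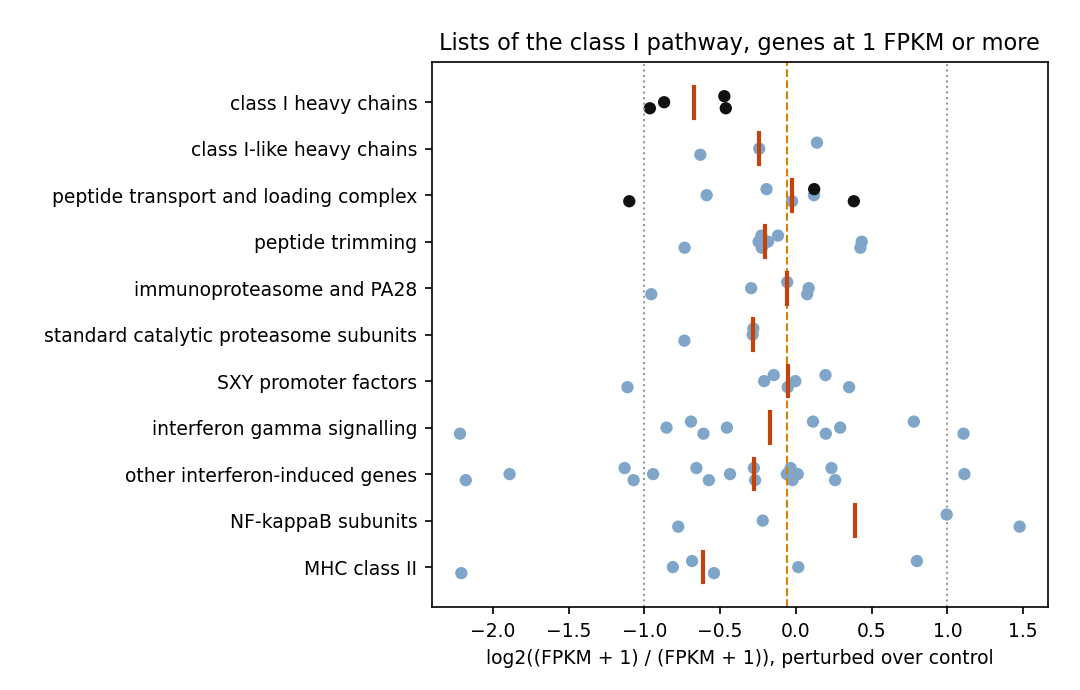
log2 ratio with 1 FPKM added, perturbed over control, for genes of 11 lists at 1 FPKM or more in a library, 1 dot a gene. Black dots are members of the group described here, red bars list medians, the dashed line the median of all genes at -0.06 and dotted lines the size rule. The 4 heavy chains all lie left of the dashed line, and the interferon lists spread to both sides.

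Of the factors that bind the X and Y boxes, 7 of 9 passed the level filter and 1 was lower, RFX5, a DNA-binding subunit of the RFX complex, at 16.1 FPKM against 35.8 FPKM (ratio log2 -1.11). RFXANK, its partner, was at 268 FPKM against 269 FPKM, and the NF-Y subunit NFYC at 35.4 FPKM against 27.5 FPKM. The list's median was -0.05. Leaving out the members, 76 genes at 1 FPKM or more had the X2 and Y pair before a start, 3 of them lower and 3 higher. Of these 76, 63.2% were below 0, beside 53.5% of all genes that passed the filter. The median of the 76 was -0.22, beside -0.06 over all genes, and -0.09 relative to genes of like level. The 273 such genes with the longer IRF form had a median of -0.05.

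Interferon gamma signalling had 1 gene lower and 1 higher of 10 that passed the filter, with a median of -0.17. All genes that passed had 7.61% lower and 7.85% higher, and a median of -0.06. IRF9, the DNA-binding part of the type I interferon factor, had 6.65 FPKM against 34.6 FPKM, a 5.20-fold lower level (4.19 to 6.56). The feedback inhibitor SOCS3 was at 13.6 FPKM against 5.79 FPKM. IRF1, which induces class I genes, was at 18.3 FPKM against 34 FPKM, at a log2 ratio of -0.85 and so short of the rule, and the receptor chain IFNGR2 was at 49.6 FPKM against 40.3 FPKM.

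Interferon-induced genes outside antigen presentation had 4 lower and 1 higher of 17 that passed, 13 of them below 0, and a median of -0.28. Among all genes that passed, 7.61% were lower, 7.85% higher and 53.5% below 0, with a median of -0.06. IFI27 was at 25.9 FPKM against 121 FPKM, IFITM1 at 64.8 FPKM against 243 FPKM, OAS1 at 1.0 FPKM against 3.39 FPKM and the ISG15-conjugating enzyme UBE2L6 at 149 FPKM against 313 FPKM. STAT2, the partner of IRF9, was at 9.17 FPKM against 3.71 FPKM, in the other direction. The 2 most abundant of the list, the antiviral membrane proteins IFITM3 and BST2, were at 2472 FPKM against 2451 FPKM and at 1093 FPKM against 1111 FPKM. IFITM1 and IFITM3 are close copies, and reads may be split between them.

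Of the NF-kappaB subunits 4 of 5 passed the filter. NFKB1 was higher, at 6.45 FPKM against 1.68 FPKM, while RELA was at 34.8 FPKM against 60.4 FPKM and NFKB2 at 33.4 FPKM against 39.1 FPKM. RELB was at 14.3 FPKM against 6.66 FPKM, a log2 ratio of 0.99 and so just short of the rule. The median over these 4 was 0.39, with 2 below 0. The MHC class II list of presenting molecules and their helpers had 6 of 13 genes that passed, with the invariant chain CD74 lower, at 0.964 FPKM against 8.07 FPKM. The median over the 6 was -0.61, with 4 below 0, beside -0.62 over the members. HLA-DMA was at 7.11 FPKM against 10.8 FPKM and HLA-DRB1, which has close copies, at 6.23 FPKM against 3.16 FPKM.

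All members but B2M and NLRC5 lie in the MHC on chromosome 6. Of the other protein-coding genes that RefSeq places from HLA-F to TAPBP, 87 were at 1 FPKM or more in a library, with 8 lower and 4 higher by the rule, 60.9% below 0 and a median of -0.17. Over all genes that passed the filter, 7.61% were lower, 7.85% higher and 53.5% below 0, with a median of -0.06. The median of the 4 heavy chains was -0.67.

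As a check of the labels, SMARCA4 had 4.49 FPKM in the perturbed library against 27.9 FPKM, and SMARCA2 had 2.60 FPKM against 0.205 FPKM, lower and higher as the design text names them. The estimated depths were 8850000 fragments in the perturbed library and 9050000 in the control. Of 7 serous carcinoma and epithelial markers, 6 were at 1 FPKM or more in a library, while MUC16, the gene of CA125, was at 0 and 0.0608 FPKM. By the size rule 1 of the 6 was higher, the tubo-ovarian marker WT1 at 5.52 FPKM against 1.53 FPKM, and 1 was lower, the epithelial keratin KRT7 at 119 FPKM against 540 FPKM. The lineage factor PAX8 was at 42.1 FPKM against 21.9 FPKM and the epithelial adhesion molecule EPCAM at 40.9 FPKM against 27.1 FPKM. The keratins KRT8 and KRT18, the most abundant of the list by mean level, were at 462 FPKM against 488 FPKM and at 362 FPKM against 420 FPKM. Over the 6 the median on the log2 scale was 0.25, with 3 below 0, and the 7 markers summed to 1031 FPKM against 1498 FPKM. Leukocytes have high class I levels, and of 9 leukocyte markers PTPRC, CD3E, MS4A1 and NKG7 were at 0 in both libraries. The list summed to 11.8 FPKM against 35.5 FPKM, of which CD68, also expressed outside leukocytes, was 11.1 FPKM against 34.9 FPKM. Endothelial markers summed to 0.411 FPKM against 0.349 FPKM and fibroblast markers to 0.0985 FPKM against 0.154 FPKM. The part of these marker differences in the members' ratios was not tested.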

How the data were processed

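Total RNA from 1 sample per group was made into cDNA with the SMART-Seq HT kit and into libraries with Nextera XT, per the labels' protocols. Each library came as deposited FPKM values, mapped fragments scaled to transcript length and library size, per the file headers. TopHat2 2.1.1, Bowtie2 2.2.8, SAMtools 0.1.18, Cuffdiff 2.2.1 and hg19 are named in the submitters' processing notes. How multi-mapped fragments were handled is not given in the sources used here, nor are the annotation, filters and scaling. Groups were taken from the genotype labels.

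Depth was estimated from the FPKM worth of 1 fragment in genes with 1 RefSeq-matched GENCODE 29 transcript of at least 300 bases, with lengths shortened by 200 bases. This step and the size rule were tested on simulated data. Fragment numbers used the shortest transcript of a gene (protein-coding ones for TAPBP, which had no RefSeq match in GENCODE). About 15.9 fragments made 1 FPKM of a 2 kb transcript. The size rule is a log2 ratio of at least 1 or at most -1, pseudocount 1 FPKM, in genes at 1 FPKM or more in a library. With 1 library per group there is no test, and a pseudocount understates the change of low genes. The trends on length, GC content and level were removed together over the 93.0% of these genes with a length, with cubic terms. The trend on level alone was removed over all of these genes, as the median ratio in each of 20 level bins.

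The members and lists were chosen with earlier results of these data known, and the motifs after the sequences were seen. The text names all members, SMARCA2 and SMARCA4, and of each pathway list the genes past the rule and the 2 most abundant. Marker lists are given by their summed levels, with named genes from those of OVSAHO and leukocytes. PSMB8, PSMB9, PSMB10, CANX, RELB, HLA-F-AS1 and PSMB8-AS1 were chosen after their values were seen. Alternatives were other pseudocounts, scalings, filters, trends and size limits. Python 3.11.15, numpy 2.4.6, pandas 2.3.3, scipy 1.17.1 and matplotlib 3.10.9 were used.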

Additional observations from a re-analysis of the deposited data

How the results depend on the processing

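Of the 9 members, 7 had a log2 ratio below 0, beside 53.5% of all genes that passed the filter. Of the 10 alternatives, those that change only the pseudocount or the filter leave this count at 7 by construction. The count was 7 or 8 with each scaling and each trend removal, where 45.8% to 50.3% of all genes were below 0. TAP1 was the single member past the 2-fold rule. None was with libraries scaled to a common sum, with the level trend removed, with the trends on length, GC content and level removed, or with a 4-fold limit (0 in each), and 4 were with a 1.5-fold limit (HLA-B, HLA-E, B2M and TAP1), all lower, beside 21.3% of all genes lower at that limit. The median over members, -0.62, was -0.50 with a common sum and -0.48 with the 3 trends removed. It was -0.47 without a filter, which adds NLRC5, and -0.81 with at least 5 FPKM in a library, which leaves 6 members. The median of all genes moved as well, from -0.06 to 0.08, -0.01, 0 and -0.17 in the same order of settings. HLA-B, HLA-C, HLA-E, HLA-F, B2M, TAP1 and NLRC5 were below 0 and TAPBP above 0 in all 7 alternatives that change ratios. The pseudocounts among these 7 change the size of a ratio but cannot change its sign. TAP2 was below 0 in 2 of the 7, at -0.14 to 0.23. The depth limits HLA-F, TAP2 and NLRC5, whose counting intervals include a ratio of 1. NLRC5 also failed the level filter, and the trends removed from its ratio were fitted on genes that passed. Their removal took its log2 ratio from -0.16 to -0.70 (level) and -0.72 (length, GC content and level). With 1 library per group no replicate could be left out.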
